A study of Ovis aries with 18 samples.

Results

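Of the 12 pools of sheep blastocysts sequenced in this study, Embryo444_2 and Embryo511_1 had gene counts unlike those of the other pools, and their gene expression is described here against the remaining 10. The 2 pools were chosen from the counts themselves. Their median Spearman correlation with the other 11 pools, over the genes that reached 15 counts in at least 4 of the 12, was under 0.7. It was 0.582 for Embryo444_2 and 0.600 for Embryo511_1, and the next value, that of Embryo423_1, was 0.820. The highest was 0.857. The other 10 pools are called concordant. Because the counts that chose the 2 pools are the counts compared below, the contrast of 2 against 10 pools is given as a description, with no test.

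The study asked whether methionine in the diet of prepubertal Polypay rams, an American sheep breed, alters sperm DNA methylation and gene expression in the embryos they sire. Control rams ate a basal ration, and treated rams received 1.5 g of rumen-protected methionine on top of it. The rams were mated to superovulated ewes on no experimental diet, and blastocysts were flushed from the uterus, pooled 5 at a time by sire and dam, amplified as whole transcriptomes and sequenced. The control group had 6 pools, 2 each from Ram410, Ram423 and Ram444, and the methionine group had 6, 4 from Ram424 and 1 each from Ram498 and Ram511. Embryo444_2 was a control pool and Embryo511_1 a methionine pool, so the diets held 1 discordant pool each. Embryo444_2 shared its ram with Embryo444_1 and, by the breeding scheme of the study, also its ewe. Embryo511_1 was the only pool of its ram. The 6 sperm samples of the series are not analysed here.

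A blastocyst is a hollow ball of cells. Its outer epithelium, the trophectoderm, pumps fluid inward and is held together by keratin filaments, desmosomes and tight junctions, and later forms the placenta. The inner cell mass holds the pluripotent epiblast and the hypoblast, or primitive endoderm. By this stage the embryo depends on its own transcription, most messages stored in the oocyte have been cleared, and transcripts for ribosomes, respiration and protein folding are abundant. A pool of whole blastocysts is a mixture of these layers, so fewer cells of a type and less RNA per cell cannot be told apart in these data.

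The discordant pools stood apart from every other pool and also from each other. Embryo444_2 correlated with the concordant pools at 0.526 to 0.622 and Embryo511_1 at 0.552 to 0.626, while the 45 pairs of concordant pools had 0.806 to 0.955. The correlation between the 2 discordant pools was 0.570. Embryo498_1 was the concordant pool nearest to both and Embryo424_2 the farthest from both. Their counts were the lowest of the series, with totals of 1173289 for Embryo444_2 and 1017847 for Embryo511_1 against 1326354 to 2398589. The number of genes with at least 15 counts was 15026 in Embryo444_2, within the range of 14746 to 16247 of the concordant pools, and 13414 in Embryo511_1, below it. With all pools thinned to 1017847 counts, the median correlations were 0.578 and 0.594 for the discordant pools and 0.810 to 0.844 for the others.

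**Figure D1:**
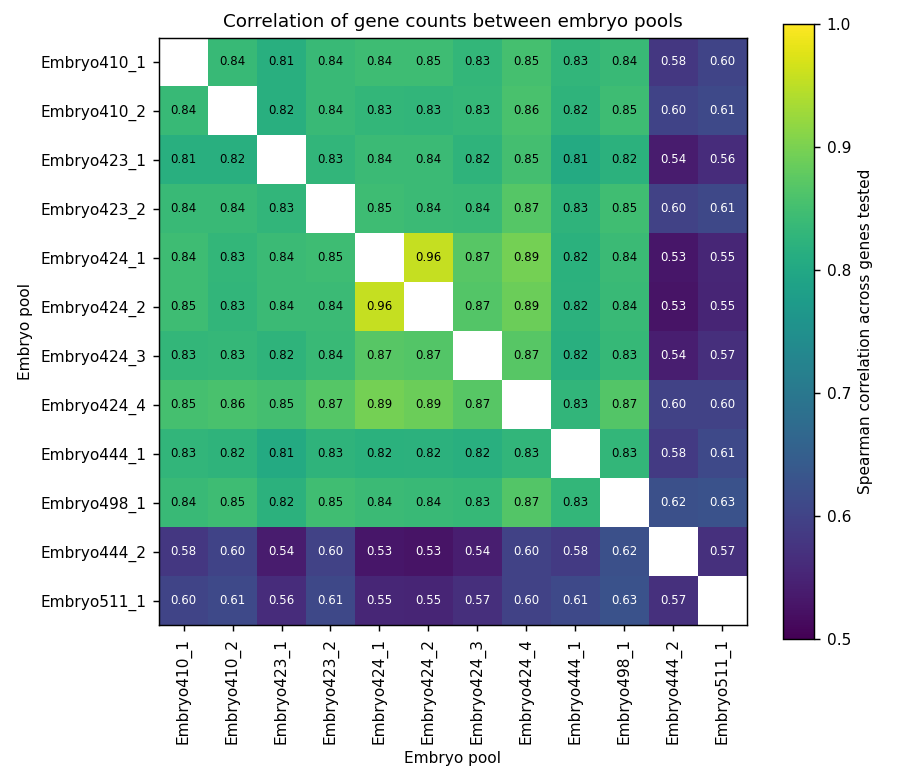
Spearman correlation of gene counts between each pair of the 12 embryo pools across 16488 genes, with the 10 concordant pools first and the 2 discordant pools last on both axes. The 2 rows of Embryo444_2 and Embryo511_1 hold values of 0.526 to 0.626, and all other pairs lie between 0.806 and 0.955.

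The genes with the most reads were different ones. Levels below are CPM, the counts of a gene relative to all counts of the pool, scaled by the trimmed mean of M-values, not corrected for gene length. Of the 100 genes with the highest median CPM in the concordant pools, 6 were among the 100 highest of Embryo444_2 and 14 among those of Embryo511_1. Each concordant pool, which also contributed to that median, shared 71 to 86. The 100 highest genes of each pool took 4.51% of its counts in Embryo444_2 and 8.54% in Embryo511_1, against 8.995% to 14.8%. In Embryo444_2 the first gene was TTN, which encodes the giant muscle protein titin, with 1781 CPM. The transcription factor gene ZBTB25 had 651 CPM there against a highest concordant value of 166 CPM, and NEB, which encodes nebulin, had 631 CPM against 440 CPM. In Embryo511_1 the first genes were PKP2, CC2D1A and the RNA helicase gene DDX47, with 5073, 2520 and 2445 CPM. Their highest concordant values were 114, 43.8 and 96.8 CPM. ZBTB25, NEB and DDX47 were picked after their values were seen.

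The genes most abundant elsewhere were the ones most often low. Genes were divided into 5 equal classes by their mean level in the pools of the other diet. The classes did not use the pool being described, but the 2 pools were chosen for low rank correlation with the others. That choice implies part of a fall in genes high elsewhere and of a rise in genes low elsewhere. In the highest class, 37.5% of genes were over 2-fold lower in Embryo444_2 than in the mean of the other 5 control pools, and 35.1% were over 2-fold lower in Embryo511_1 than in the other 5 methionine pools. Concordant pools compared in the same way had 0.303% to 8.49%, the last being Embryo498_1. The median difference in that class was -0.56 log2 units in Embryo444_2 and -0.44 in Embryo511_1, against -0.26 to 0.19. In the lowest class it was 0.25 and 0.17, against -0.13 to 0.19. The lower total counts of the 2 pools moved together with this pattern, and their part in it was not tested.

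**Figure D2:**
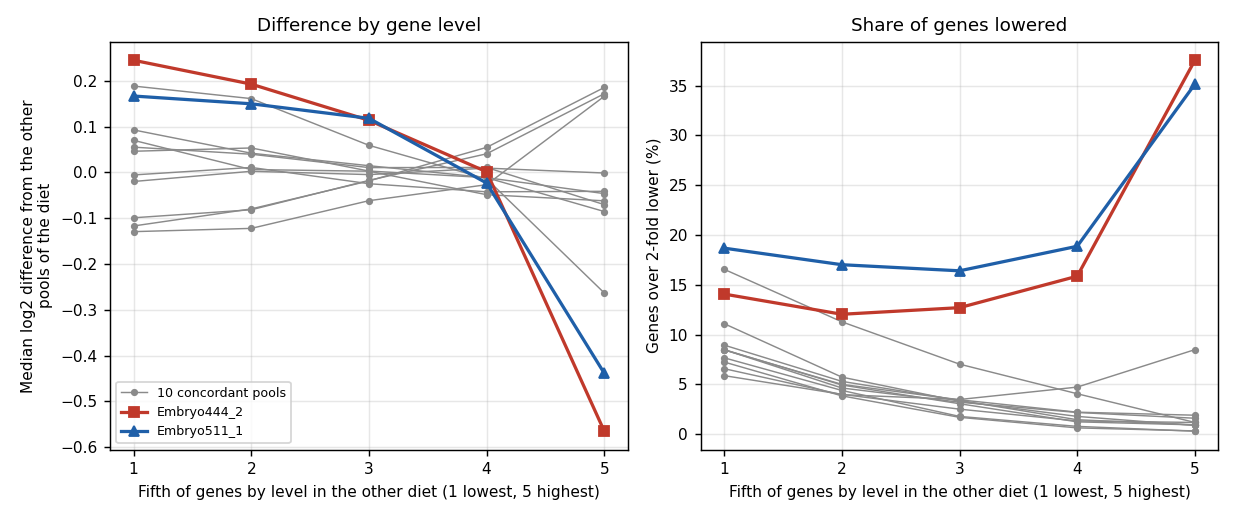
Difference of each pool from the other pools of its diet, in 5 equal classes of genes ranked on their level in the other diet (1 lowest, 5 highest), as the median log2 difference (left) and the percentage of genes over 2-fold lower (right). In the highest class the curves of Embryo444_2 and Embryo511_1 reach 37.5% and 35.1%, and the concordant pools stay at or below 8.49%.

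A gene is called gained where both discordant pools lay above the highest of the 10 concordant pools and the mean log2 CPM differed by at least 1, and lost where both lay below the lowest and it differed by as much. Of 16488 genes tested, 797 were gained (4.83%) and 1789 were lost (10.9%). Without the minimum difference, 1343 genes (8.15%) had both pools above the other 10 and 2129 (12.9%) had both below. Taken alone against the 10, Embryo444_2 had 1918 genes above (11.6%) and 2917 below (17.7%), and Embryo511_1 had 2677 above (16.2%) and 3144 below (19.1%). Losses were also deeper. A difference of at least 2 log2 units was seen in 83 gained and 774 lost genes, at least 3 in 5 and 248, and at least 5 in 0 and 14. Lost genes had a median level of 89.9 CPM in the concordant pools, gained genes 24.0 CPM and all genes tested 34.4 CPM. Uncharacterised genes with a LOC identifier made up 19.2% of gained, 8.83% of lost and 14.0% of tested genes. The median difference over all genes was 0.04 log2 units with the scaling used, but 0.22 with library totals alone, where 1378 genes were gained and 1467 lost.

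Of the 4 genes put forward as markers of the 2 pools, KRT8 and TALDO1 were lost in both, PKP2 was high in Embryo511_1 alone and TTN separated neither pool by the rule. KRT8, a keratin of simple epithelia and of the trophectoderm, had 116 CPM in Embryo444_2 and 42.6 in Embryo511_1, against 3893, 6371 and 11862 CPM as the lowest, median and highest concordant value. TALDO1, the transaldolase of the pentose phosphate pathway, had 175 and 2175 CPM, against 5512, 7971 and 17211. It had the highest median CPM of all genes in the concordant pools, and Embryo444_2 minus Embryo511_1 was -3.63 log2 units. PKP2, a plakophilin of desmosomes, had 56.6 CPM in Embryo444_2, within the concordant range of 47.4 to 114, and 5073 in Embryo511_1. TTN had 1781 CPM in Embryo444_2 and 1391 in Embryo511_1, against 930, 1221 and 1519, so the second pool overlapped the concordant ones.

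The largest losses by gene group were in protein synthesis. Gene lists were chosen with earlier results of these data known, and each is described by its counts and its median. These are to be read beside 4.83% gained, 10.9% lost and a median of 0.04 log2 units over all genes. Lists were not set beside other genes of like level, and the choice of the 2 pools implies part of a fall in genes high elsewhere. Counts and medians cover the list genes that passed the count filter, and summed levels cover all list genes with a row. Of 67 cytosolic ribosomal protein genes tested, 61 were lost and 0 gained, with a median difference of -2.94 log2 units. Within diets the median was -3.94 in Embryo444_2 and -1.89 in Embryo511_1. Summed over the list, the level was 1906 CPM in Embryo444_2 and 10044 in Embryo511_1, against 19996 to 44043 CPM, so Embryo444_2 was the lower of the 2 by a wide margin. RPLP0, a stalk protein of the large subunit, had 29.7 and 96.2 CPM against 948, 1157 and 2466. RPL11, also of the large subunit, had 5.66 and 41.6 CPM against 261, 365 and 819. For the small subunit, RPS16 had 2.12 CPM, from 3 counts, in Embryo444_2 and 113 CPM in Embryo511_1, against 313, 485 and 710. RPS21 had 0 counts in Embryo444_2, which allows up to 3 counts or 2.12 CPM, and 20.8 CPM in Embryo511_1, against 85.5, 117 and 205. All 4 genes lay below the concordant range in both pools and were lower in Embryo444_2. Ribosomal protein genes have many processed pseudogenes, and reads shared with these could be split in the counting.

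Translation factors, which load and move the ribosome, followed the same order. Of 31 tested, 21 were lost and 0 gained, with a median of -1.94 log2 units (-2.13 in Embryo444_2 and -1.47 in Embryo511_1 within diet). EIF4A1, the helicase of initiation, had 20.5 and 216 CPM against 632, 1124 and 1576. PABPC1, the poly(A)-binding protein, had 65.8 and 145 CPM against 551, 672 and 2726. Both pools were outside the concordant range for both genes.

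Most of the tested nuclear genes of oxidative phosphorylation and of glycolysis were lost. The lists held 76 and 19 genes, of which 49 and 16 had a row. Of 48 tested nuclear genes of oxidative phosphorylation, 31 were lost and 0 gained, with a median of -2.14 log2 units. The summed level of the 49 with a row was 918 and 1683 CPM against 5016 to 11066. NDUFA4, a subunit of the respiratory chain, had 4.25 and 9.91 CPM against 110, 155 and 252. NDUFA2, of complex I, had 9.20 and 4.96 CPM against 99.96, 150.2 and 402, and SDHB, the iron-sulphur subunit of succinate dehydrogenase, had 7.08 and 43.6 CPM against 238, 314 and 606. ATP5MF, of the ATP synthase, had 2.83 and 42.6 CPM against 114, 297 and 562. The 13 protein genes of the mitochondrial genome have no row under the symbols searched, so respiration could be followed through nuclear genes only. Of 16 glycolysis genes, 9 were lost and 0 gained, with a median of -1.18. LDHB, a lactate dehydrogenase subunit, had 12.0 and 16.9 CPM against 160, 294 and 441, and ALDOA, an aldolase, had 25.5 and 90.2 CPM against 482, 702 and 1481. Of 8 pentose phosphate genes, 3 were lost and 0 gained, with a median of -0.65. TKT, the transketolase, which works beside transaldolase, had 43.2 and 118 CPM against 216, 285 and 629. PRPS1, which makes the nucleotide precursor from ribose phosphate, had 14.9 and 54.5 CPM against 60.0, 106 and 179. Both sugar pathways held lost genes, and the other 5 tested pentose phosphate genes were neither gained nor lost.

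Genes of protein quality control were also lost in both pools. Of 29 proteasome genes, 17 were lost and 0 gained, with a median of -1.39 log2 units, and of 24 chaperone and folding genes 17 were lost and 0 gained, with a median of -1.60. PSMB5, a catalytic subunit of the proteasome, had 3.54 and 31.7 CPM against 79.5, 122 and 226. PSMD2, of its regulatory particle, had 43.9 and 10.9 CPM against 131, 184 and 248. The order of the 2 pools thus differed between these subunits. HSPA8, the constitutive cytosolic HSP70, had 60.9 and 63.4 CPM against 486, 728 and 2211, and P4HB, the protein disulphide isomerase, had 37.5 and 268 CPM against 849, 1095 and 2616.

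Gene symbols that begin alike gave a wider view, with the families taken after the values were seen. Of 67 families with at least 20 tested genes, 10 had over 20% of their members lost. Over all genes 10.9% were lost and 4.83% gained. RPL symbols had 34 of 41 lost, RPS 23 of 38, EIF 21 of 47, and the mitochondrial ribosomal proteins MRPL 20 of 45 and MRPS 9 of 26. ATP symbols, which cover ATP synthases and other ATPases, had 26 of 72 lost, and the ubiquitin-conjugating UBE genes 11 of 37. At the other end, 7 families had no lost gene. Collagens (COL) had 0 lost and 4 gained of 43, and zinc finger genes (ZNF) 7 lost and 16 gained of 243. Leucine-rich repeat genes (LRRC) had 2 lost and 9 gained of 59.

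**Figure D3:**
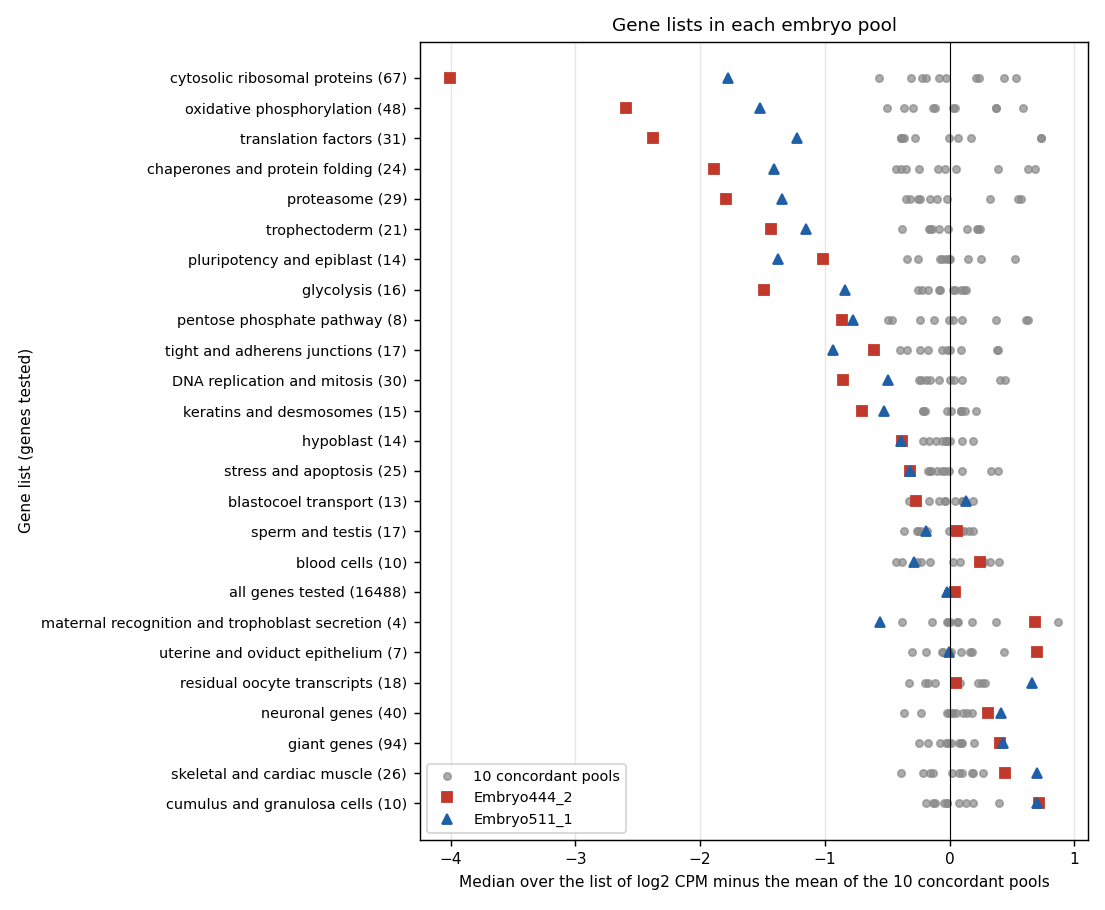
Median over each gene list of the log2 CPM in a pool minus the mean of the 10 concordant pools, with the number of genes tested in brackets, for Embryo444_2 (squares), Embryo511_1 (triangles) and the 10 concordant pools (circles). Ribosomal protein genes are lowest, at -4.00 in Embryo444_2 and -1.78 in Embryo511_1, while the concordant pools lie between -0.56 and 0.53.

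The layers of the blastocyst were marked by lost genes in both pools, although transcripts of all 3 layers were still counted. Of 21 trophectoderm genes, 10 were lost and 0 gained, with a median of -1.14 log2 units, and the summed level was 973 CPM in Embryo444_2 and 1185 in Embryo511_1, against 5543 to 11558. CDX2, a transcription factor that specifies trophectoderm, had 2.83 and 7.93 CPM against 23.2, 34.4 and 110. GATA2, a second such factor, had 4.25 and 3.97 CPM against 33.4, 54.9 and 86.1, and TFAP2C had 49.6 and 27.8 CPM against 326, 447 and 830. SLC7A5, an amino acid transporter subunit, had 95.6 and 218 CPM against 1076, 1529 and 2136. All 4 genes were outside the concordant range in both pools. The other 11 tested genes of the list were neither gained nor lost, and some were higher in 1 pool. EOMES, a T-box factor, had 96.3 CPM in Embryo444_2, above the highest concordant value of 67.9, and 18.8 in Embryo511_1, below the lowest of 24.1. ELF5, an ETS factor, had 29.0 and 66.4 CPM, both within the concordant range of 17.1 to 128.

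In the inner cell mass, 6 of 14 pluripotency genes were lost and 1 gained, with a median of -1.03. POU5F1, the core pluripotency factor OCT4, had 14.2 and 39.7 CPM against 132, 317 and 521. ZFP42, known as REX1, had 13.5 and 17.8 CPM against 91.4, 130 and 366, and the methyltransferase gene DNMT3B had 62.3 and 20.8 CPM against 125, 207 and 255. PRDM14, a repressor of differentiation, was the gained member, with 43.9 and 83.3 CPM against 14.5, 25.5 and 37.9. NANOG, by contrast, had 9.91 and 7.93 CPM and overlapped the concordant pools, which had 5.10 to 16.3 CPM. Of 14 hypoblast genes, 3 were lost and 1 gained, with a median of -0.48. GATA6, which specifies the hypoblast, had 38.9 and 66.4 CPM against 249, 390 and 801, and RSPO3, a secreted activator of WNT signalling, had 4.96 and 12.9 CPM against 103, 170 and 342. DAB2, an endocytic adaptor that is also on the trophectoderm list, was the remaining lost gene, with 56.6 and 77.3 CPM against 167, 354 and 736. GATA4 overlapped the concordant range in Embryo444_2 (26.9 CPM) and lay above it in Embryo511_1 (94.2 CPM), with concordant values of 18.2 to 44.3 CPM. SOX17, under the count filter, had 2 and 0 counts, and 0.71 to 5.71 CPM in the concordant pools. APOE, an apolipoprotein, was the gained member, with 35.4 and 17.8 CPM against 4.78, 7.52 and 17.3.

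Genes of epithelial structure differed in uneven shares. Of 15 keratin and desmosome genes, 5 were lost and 0 gained, with a median of -0.62 log2 units. KRT18, the partner of KRT8 in its filaments, had 14.2 and 34.7 CPM against 696, 1548 and 2219. The junction protein genes JUP, with 33.3 and 40.6 CPM against 74.5 to 268, and PERP, with 21.2 and 25.8 CPM against 45.4 to 149, were lost by less. PKP3, a second plakophilin, was low everywhere, with 0 and 1 counts in the discordant pools and 4.96 to 29.3 CPM in the others. Of 17 junction genes, 6 were lost and 0 gained, with a median of -0.86. CLDN6, a claudin of tight junctions, had 20.5 and 31.7 CPM against 83.0, 116 and 247. CDH1, which encodes E-cadherin, was lost with 71.5 and 94.2 CPM against 149, 237 and 490. F11R, the junctional adhesion molecule, was unlike it, with 77.9 CPM in Embryo444_2, at the concordant median, and 960 CPM in Embryo511_1 against a highest value of 179. Of 13 pumps and channels that fill the cavity, 1 was lost and 1 gained, with a median of 0.00. The lost member was the water channel gene AQP3, with 60.9 and 20.8 CPM against 92.9, 157 and 359, and the gained member was AQP9, with 28.3 and 104 CPM against 11.9, 16.7 and 27.0.

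Stress and cell division genes were lost in smaller shares. Of 25 genes of apoptosis and the stress responses, 5 were lost and 0 gained, with a median of -0.33. TP53INP1, a p53 target, had 75.0 and 39.7 CPM against 289, 402 and 943. The survival factor gene MCL1 had 41.1 and 49.6 CPM against 109, 156 and 284, and ASNS, the asparagine synthetase, had 48.8 and 29.7 CPM against 80.5, 204 and 309. XBP1 and GADD45A were the other lost members. Of 30 replication and mitosis genes, 8 were lost and 0 gained, with a median of -0.78. MCM2 and MCM7, subunits of the replicative helicase, had 16.3 and 5.95 CPM against 75.1, 155 and 261, and 77.2 and 98.1 CPM against 228, 361 and 488.

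Beside these groups, the 12 lost genes with the largest difference included several small proteins of the cytoskeleton and of redox defence. LGALS3, the lectin galectin-3, had 14.9 and 92.2 CPM against 2066, 3370 and 7286. CRIP1, a LIM domain protein, had 5.66 and 17.8 CPM against 655, 1078 and 1858. The actin-binding TAGLN2 had 18.4 and 29.7 CPM against 654, 1283 and 2060, and the actin-sequestering TMSB10 had 3.54 and 89.2 CPM against 526, 774 and 1193. Over the 12 genes, differences of the means ran from -6.61 log2 units for LGALS3 to -4.98 for GPX1. SLC9A3R1, a scaffold beneath the apical membrane, had 8.49 and 9.91 CPM against 393, 699.8 and 1049, and the chromatin protein gene HMGA1 had 6.37 and 10.9 CPM against 328, 624 and 821. The glutathione peroxidases GPX4 and GPX1 were both on the list. GPX4, which reduces lipid peroxides, had 5.66 and 13.9 CPM against 341, 476 and 672. GPX1 had 2.83 and 6.94 CPM against 72.4, 166 and 385. STUB1, a ubiquitin ligase that works with chaperones, had 0 and 2 counts in the discordant pools, both within the limit that 3 counts set, and at least 48.8 CPM in every concordant pool. CCDC51, a protein of the inner mitochondrial membrane, had 24.1 and 15.9 CPM against 455, 763 and 1406. None of these genes overlapped between the 2 sets, which the rule requires.

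The 12 gained genes with the largest difference had varied known roles, and 11 of them were higher in Embryo511_1 than in Embryo444_2. CCDC40, needed to assemble the axoneme of cilia, had 330 and 1697 CPM against 41.6, 66.5 and 99.2. CC2D1A, a signalling scaffold, had 49.6 and 2520 CPM against 25.7, 33.5 and 43.8, and the within-diet difference was 0.54 log2 units in Embryo444_2 and 6.20 in Embryo511_1. GRAP2, an adaptor of T cell signalling, had 50.3 and 728 CPM against a highest value of 50.05, and ZP3, a glycoprotein of the zona pellucida, had 27.6 and 410 CPM against 26.8. In both cases Embryo444_2 barely exceeded the concordant pools. IFIT1, an interferon-induced gene, had 71.5 and 492 CPM against 48.7, and the small heat shock gene HSPB7 had 16.3 and 120 CPM against 10.6. LRRC61 had 14.9 and 126 CPM against 12.1. FBXO45 had 105 and 230 CPM against 49.6, ELSPBP1 had 67.3 and 209 against 42.2, and PID1 had 65.8 and 176 against 38.2. GABRR2, a GABA receptor subunit, had 42.5 and 259 CPM against 33.4. KCNRG, a regulator of potassium channels, was the only one of the 12 that was higher in Embryo444_2, with 63.7 and 38.7 CPM against 12.2.

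**Figure D4:**
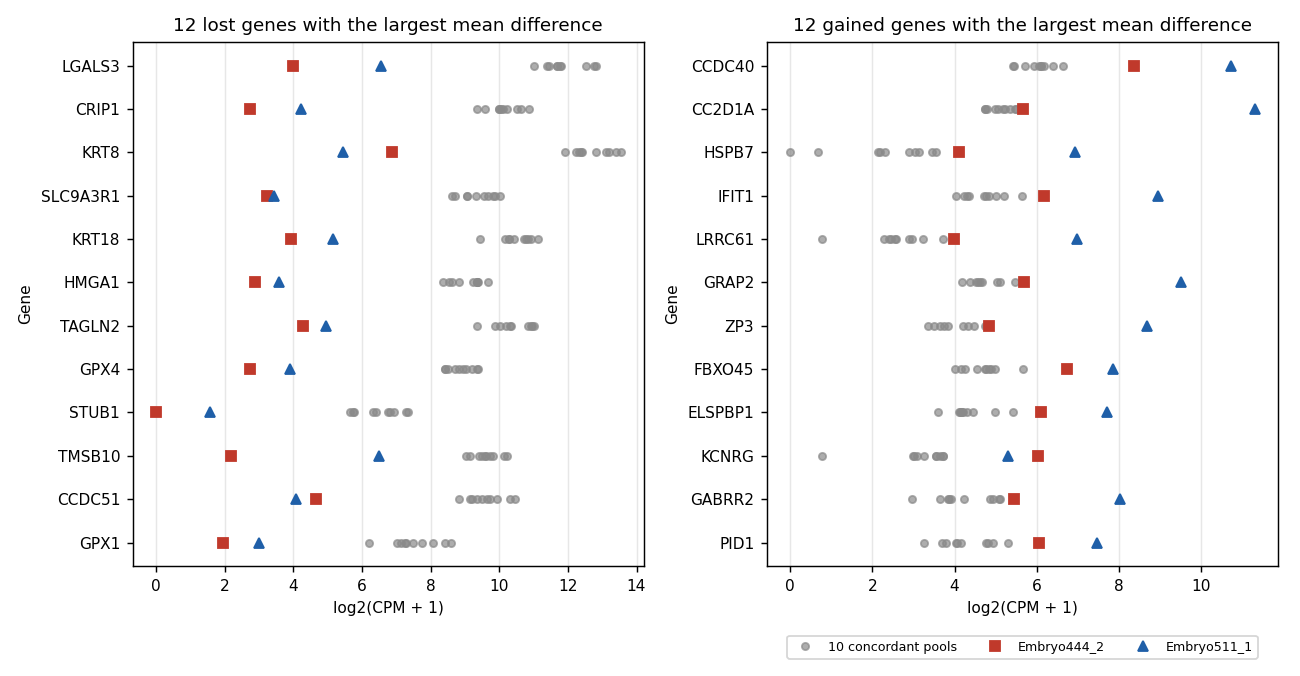
Level, as log2(CPM + 1), of the 12 lost (left) and 12 gained (right) genes with the largest mean difference, in Embryo444_2 (squares), Embryo511_1 (triangles) and the 10 concordant pools (circles). For lost genes both discordant pools lie left of all circles, and for 11 of the 12 gained genes Embryo511_1 lies farthest to the right.

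Genes with very long coding sequences, such as TTN, NEB and the other giants of muscle, cytoskeleton and cilia, had few members called. Of 94 tested, 5 were gained (5.32%) and 2 lost, with a median of 0.42 log2 units. Within diet, the median was 0.36 in Embryo444_2 and 0.52 in Embryo511_1. Against the mean of the 10 concordant pools, the list median was 0.40 and 0.43, above all concordant pools, which had -0.25 to 0.20. The summed level of 21837 and 25626 CPM lay within the concordant range of 17466 to 34579, whose highest pool was Embryo444_1. The concordant median of that sum was 19532 CPM, below both discordant pools. FSIP2, a protein of the sperm tail sheath, had 376 and 744 CPM against 83.6, 116 and 184. XIRP2, an actin-binding protein of muscle, had 268 and 150 CPM against 56.5, 75.8 and 114, and FAT3, a giant cadherin, had 126 and 98.1 CPM against a median of 53.8 and a highest value of 66.8. SSPO and RYR1 were the other gained members. The lost members were AHNAK, a scaffold of epithelial membranes, with 62.3 and 75.3 CPM against 560, 1076 and 1363, and LRP2, an endocytic receptor of embryonic epithelia, with 278 and 285 CPM against 765, 1175 and 2291. CELSR3, an adhesion receptor, was above the concordant range in Embryo511_1 alone, with 99.1 and 626 CPM against 65.4 to 127.

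Contractile genes and genes of neurons had summed levels above the concordant range in both pools. Of 26 tested muscle genes 2 were gained and 0 lost, with a median of 0.67 (0.18 in Embryo444_2 and 0.85 in Embryo511_1 within diet). Within diet, 2 lay above and 2 below the other pools in Embryo444_2, and 11 above and 1 below in Embryo511_1. The summed level of the 29 with a row was 4168 and 4846 CPM against 2180 to 3614. Of the defining muscle genes, ACTA1 and TNNT3 were within the concordant range in Embryo444_2 and above it in Embryo511_1, at 115 and 43.6 CPM, whereas CKM was above it in Embryo444_2 (42.5 CPM, highest concordant 36.9) and below it in Embryo511_1 (9.91 CPM, lowest 10.5). RYR1, a calcium channel of muscle, was gained with 318 and 501 CPM against 95.7, 159 and 279. MYBPC1, a myosin-binding protein, was gained with 137 and 98.1 CPM against 43.8, 58.0 and 69.8. Of 40 tested neuronal genes 1 was gained and 0 lost, with a median of 0.39. Within diet, 4 lay above and 1 below in Embryo444_2, and 11 above and 1 below in Embryo511_1. The summed level of the 42 with a row was 3313 and 3907 CPM against 1865 to 2919. The gained gene was GRIN2B, a glutamate receptor subunit, with 158 and 234 CPM against 59.4, 73.9 and 126. Of the defining neuronal genes, SNAP25 was above the concordant range of 17.0 to 42.3 CPM in Embryo444_2 (87.8) and within it in Embryo511_1 (28.8). SYT1, with 36.1 and 44.6 CPM against 19.1 to 54.5, and RBFOX3, with 34.7 and 15.9 CPM against 10.8 to 56.7, overlapped the concordant pools. The defining genes of both tissues that have a row were counted in all 12 pools, and their part in the differences was not tested.

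Markers of cells that flushing or the oocyte could bring gave mixed values. Of 10 blood genes, 1 was gained and 2 lost, with a median of -0.08. PTPRC, the leukocyte antigen CD45, was gained with 121 and 254 CPM against 40.2, 59.1 and 76.5, while CD68, of macrophages, was lost with 6.37 and 1.98 CPM against 8.60 to 38.8. ALAS2, of haem synthesis in red cells, had 9.91 and 10.9 CPM against 14.5, 217 and 622. HBM, a defining blood gene under the count filter, had 9.91 and 6.94 CPM, from 14 and 7 counts, against 0 to 5.68. Of 7 tested genes of the uterine tract, 0 were gained or lost. The summed level of the 9 with a row was 295 CPM in Embryo444_2, above the concordant range of 134 to 195, and 142 CPM in Embryo511_1. The defining genes PAX8 and PGR were within the concordant range in both pools. Of 10 cumulus and granulosa genes 2 were gained and 0 lost, with a median of 0.59 and a sum of 449.5 and 505 CPM against 270.4 to 421. Within diet, 3 lay above and 0 below the other pools in Embryo444_2, and 4 above and 2 below in Embryo511_1. FOXL2, a defining gene, had 32.6 and 16.9 CPM, within the concordant range of 0.71 to 47.5. The gained genes were AMHR2, the receptor of anti-Müllerian hormone, with 44.6 and 37.7 CPM against 2.86, 11.4 and 25.5, and TNFAIP6, of the cumulus matrix, with 46.7 and 36.7 CPM against 6.62, 8.02 and 23.4. Of 18 oocyte genes 2 were gained and 1 lost, with a median of 0.39. The sum over the 21 oocyte genes with a row was 460.1 CPM in Embryo444_2, inside the range of 356 to 485. It was 1157 CPM in Embryo511_1, of which ZP3 made up 410 CPM. KPNA7, an importin of oocytes, was also gained, with 48.1 and 126 CPM against 26.8, 34.2 and 44.2, and ZAR1 was lost, with 5 and 0 counts. Of 17 tested sperm and testis genes 0 were gained and 1 lost, with a median of 0.01. The sum over the 21 with a row, however, was 861 and 1786 CPM against 444.3 to 654. The lost gene was TXNDC2, a thioredoxin of sperm, with 4.96 and 1.98 CPM against 5.66 to 19.6. AKAP4, a defining sperm gene, had 29.7 and 53.5 CPM, within the concordant range of 14.3 to 83.7. SPATA18 made up 394 CPM of the sum in Embryo444_2 and TNP1 1008 CPM of that in Embryo511_1. Of 4 genes secreted by or acting in the trophoblast, 0 were gained or lost. The defining genes HBB, OVGP1, FSHR, CYP19A1 and PRM1 have no row.

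Embryo444_2 was set beside Embryo444_1, the pool of the same ram. These 2 pools differed over 2-fold in 35.6% of genes, while the 8 pairs of concordant pools of a ram differed so in 3.81% to 18.6%. Embryo444_2 minus Embryo444_1 gave a median of -3.78 log2 units for ribosomal protein genes, -2.19 for oxidative phosphorylation and -1.39 for trophectoderm, and 0.26 for genes with long coding sequences, with -0.04 over all genes. These gene groups thus differed between pools of 1 ram in the order seen against all concordant pools. Embryo511_1 had no other pool of its ram, so ram, ewe and pool cannot be told apart for it.

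To see what the 2 pools shared, each was compared with the other 5 pools of its own diet, so that the comparisons have no pool in common. A gene was called where the pool lay outside the range of the 5 and differed from their mean by at least 1 log2 unit. Embryo444_2 had 1995 genes above (12.1%) and 2945 below (17.9%), and Embryo511_1 had 3043 above (18.5%) and 3435 below (20.8%). With library totals alone, Embryo444_2 had 3369 above and 2188 below, as its median over all genes was then 0.31 log2 units. Each concordant pool, against the other 4 of its diet, had 274 to 957 above and 411 to 1243 below, and against 4 pools the discordant ones had 1942 to 2099 and 2987 to 3260 above, and 2967 to 3005 and 3387 to 3580 below.

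Shares of common calls were read beside the shares over all genes given above. There were 1447 genes below in both pools, which made up 49.1% of the list of Embryo444_2 and 42.1% of that of Embryo511_1, where 20.8% of all genes were below in Embryo511_1 and 17.9% in Embryo444_2. There were 479 genes above in both, 24.0% and 15.7% of the lists, nearer to the 18.5% and 12.1% of all genes above in the other pool. Opposite calls were also made, with 235 genes above in Embryo444_2 and below in Embryo511_1, and 288 the reverse. Across the 16488 genes the 2 differences had a Pearson's r of 0.36 and a Spearman's rho of 0.29, and the 25 pairs of concordant pools of different diets had r from -0.14 to 0.10. Genes are not independent replicates, and the pools were chosen for standing apart, so these values are a description.

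The form of the differences was not the same. Embryo511_1 had 170 genes at least 3 log2 units above the mean of the other methionine pools and 11 at least 5 above, while Embryo444_2 had 22 and 1 against the other control pools. At the low end the order turned, with 425 genes at least 3 log2 units below and 58 at least 5 below in Embryo444_2, and 323 and 13 in Embryo511_1. Genes with at least 15 counts in a single pool of the 12 numbered 196 for Embryo444_2 and 89 for Embryo511_1, against 20 to 87 for each concordant pool.

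**Figure D5:**
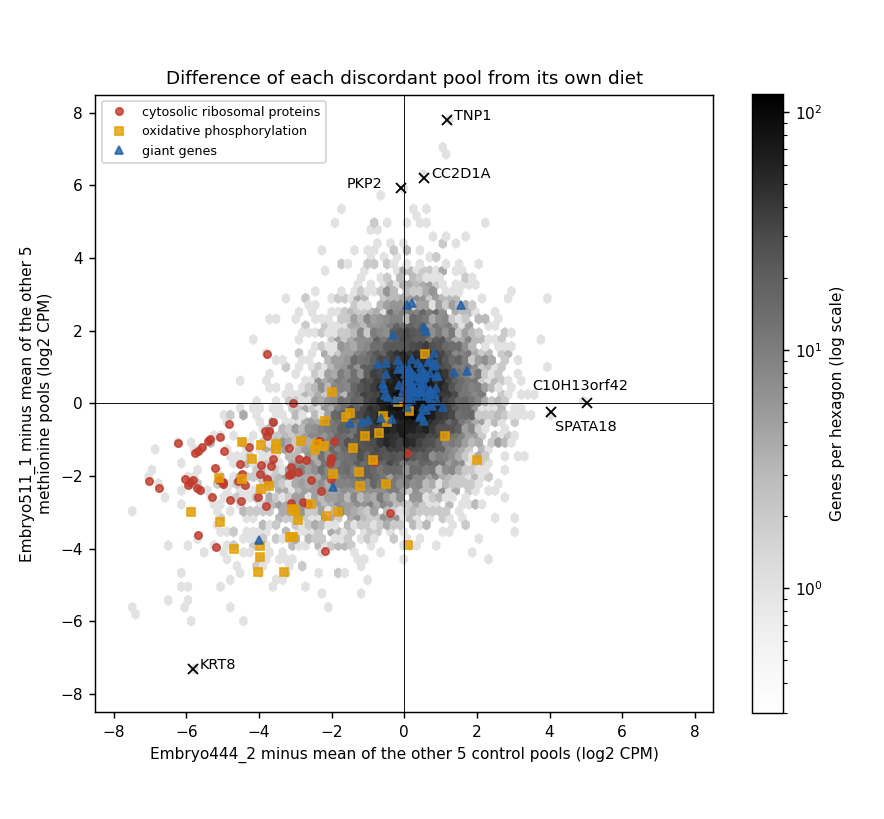
Difference in log2 CPM of Embryo444_2 from the mean of the other 5 control pools (horizontal) and of Embryo511_1 from the mean of the other 5 methionine pools (vertical), as a density of all genes with 3 gene lists and 6 named genes on top. Ribosomal protein and oxidative phosphorylation genes lie mostly at the lower left, PKP2, CC2D1A and TNP1 are high on the vertical axis, and C10H13orf42 and SPATA18 are far along the horizontal axis.

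Genes that differed most between the 2 pools were taken among those outside the concordant range in 1 of the 2 alone, so that being high or low in a single pool follows from the choice. TNP1, a transition protein that replaces histones in spermatids, had 1008 CPM in Embryo511_1 and 12.7 in Embryo444_2, against 1.20, 3.57 and 15.6. POLM, a DNA polymerase of end joining, had 1700 and 20.5 CPM in the same order, against 17.2, 31.5 and 53.8. LYPD8 had 475 and 8.49 CPM against 7.14 to 51.7, and PPIC, a cyclophilin, had 284 and 4.96 CPM against 4.29 to 19.1. With PKP2, these were the 5 genes of that kind with the largest excess of Embryo511_1, with Embryo444_2 minus Embryo511_1 at -6.45 to -5.51 log2 units. In the other direction, C10H13orf42 had 507 CPM in Embryo444_2 and 12.9 in Embryo511_1 against 5.71, 10.9 and 43.6. SPATA18, of mitochondrial quality control, had 394 and 20.8 CPM against 15.6, 23.2 and 36.7, and RHBDF2, which escorts a membrane protease to the surface, had 234 and 13.9 CPM against 8.47 to 28.9. TP53I13 had 326 and 11.9 CPM, but its concordant values ran widely from 8.47 to 222. RAC3, a small GTPase, differed because Embryo511_1 had 0 counts, which allows up to 2.97 CPM, while the 21.9 CPM of Embryo444_2 lay within the range of 7.86 to 25.0.

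In the discordant pools, as in some concordant ones, the highest genes had an over 2-fold higher neighbour more often than all genes did. Most of them had none. Neighbours were taken from the order of genes in a RefSeq annotation of the sheep genome, in which 92.7% of the tested genes were found. In Embryo511_1 the neighbours of TNP1 were RPL37A, with a within-diet difference of -2.24 log2 units, and TNS1, with -0.04. Those of PKP2 were SYT10, with 0.61, and YARS2, with -0.95. Other high genes of this pool had a raised neighbour. Those of CC2D1A were DCAF15, with -1.52, and NANOS3, with 1.30, and those of GRAP2 were ENTHD1, with -1.56, and FAM83F, with 1.38. In Embryo444_2 the neighbours of C10H13orf42 had -0.41 and -0.39. Of the 100 genes with the largest positive difference in each pool, 46 had a neighbour over 2-fold higher in Embryo511_1 and 32 in Embryo444_2, where 33.3% and 23.1% of all genes had such a neighbour. In concordant pools this number was 3 to 23 of 100, against 3.92% to 11.2% of all genes. Pool by pool the order varied, with 23 of 100 against 11.2% in Embryo498_1 and 3 of 100 against 3.92% in Embryo424_1. The rank correlation of the differences of neighbouring genes was 0.082 in Embryo444_2 and 0.030 in Embryo511_1, against 0.011 to 0.040.

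Diets were compared with and without the 2 pools. The study's methods name a likelihood-ratio test, which is given here as an alternative to the quasi-likelihood test. With all 12 pools, the quasi-likelihood test of edgeR called 0 genes (0% of those tested in either direction) at an FDR under 0.05, with 1306 at an unadjusted p under 0.05 and a smallest FDR of 0.584. Without both discordant pools it called 0 higher and 1 lower gene in the methionine group (0.00607% of genes), with 1959 at an unadjusted p under 0.05. The common coefficient of biological variation was 0.450 with them and 0.341 without them. The likelihood-ratio test called 5 genes with 12 pools and 79 without the 2, and DESeq2 called 16 and 107. Pools of a ram are not independent animals, so these p-values measure the spread between pools. With Embryo511_1 out, Ram511 had no pool, and every methionine pool but Embryo498_1 came from Ram424. The part of ram in the calls made without the discordant pools was not tested. Leaving out Embryo444_2 or Embryo511_1 alone gave 0 calls in edgeR's quasi-likelihood test.

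The gene called was MROH5, of the maestro heat-like repeat family. It had 38.2 to 83.0 CPM in the 5 concordant control pools and 11.3 to 22.9 CPM in the 5 concordant methionine pools, which did not overlap. All of these methionine pools but Embryo498_1 came from Ram424, and the part of ram in the difference was not tested. Embryo511_1, a methionine pool, had 53.5 CPM and lay among the control values, and Embryo444_2 had 36.8 CPM, just below them. The log2 difference, methionine minus control, was -1.87 ± 0.27 (SE) without the 2 pools (edgeR FDR = 0.0425) and -1.38 ± 0.35 with them (edgeR FDR = 0.584). Standard errors here and below were derived as the size of the log2 difference divided by the square root of the quasi-likelihood F statistic. For 3 other genes, the ones with the smallest p-values over 12 pools, both quasi-likelihood fits gave an edgeR FDR over 0.05. The paper lists all 3 as differentially expressed, from a likelihood-ratio test over its own set of genes. HRC, a calcium-binding protein of the sarcoplasmic reticulum, differed by -1.76 ± 0.34 and -1.70 ± 0.36, C20H6orf136 by 1.52 ± 0.30 and 1.45 ± 0.29, and UNC93A by -1.48 ± 0.31 and -1.57 ± 0.29, with and without the discordant pools.

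The standard error of the diet difference was lower without the 2 pools in 77.0% of genes, and its median over all genes went from 0.35 to 0.30 log2 units. For lost genes it went from 0.43 to 0.27, and for genes neither gained nor lost from 0.33 to 0.30. The rule that called lost genes implies part of this fall. Among lost genes, 52 (2.91%) had an unadjusted p under 0.05 between diets with 12 pools and 344 (19.2%) with 10 pools. The share went from 1.13% to 6.02% in gained genes and from 7.92% to 11.9% over all genes. In all, 848 genes had such a p in both fits.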

How the data were processed

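RNA sequencing counts of 12 embryo pools were analysed. Per the study's methods, the authors amplified whole transcriptomes, sequenced 100-bp single-end reads, trimmed them with Trimmomatic, aligned them to Oar_rambouillet_v1.0 with STAR and deposited whole-number counts per gene, not normalized. Whether counting used strand is not given in the sources used here, so antisense and overlapping genes could share reads. Reads were amplified with no molecular identifiers, and floors of 3 counts cover counting error only. Totals were 1017847 to 2398589 counts per pool, which limits precision for low genes.

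The filter stated by the authors was applied, a minimum of 15 counts in over 3 pools (16488 of 20092 genes passed). The paper reports more genes under that filter, so the sets tested are not the same. Log2 CPM used trimmed mean of M-values (TMM) factors from edgeR 4.0.16 in R 4.3.3 with a prior count of 2. Lists, members and named genes were chosen with earlier results of these data known. Named genes were the 4 markers, the 12 gained and 12 lost genes with the largest mean difference and at least 10 CPM on average, up to 4 genes of each of 26 lists, the 5 genes in each direction that differed most between the 2 pools and lay outside the range of the other 10 in 1 of the 2 alone, and, for diet, those past the FDR or with the 3 smallest p-values. CDX2, NANOG, GATA4, SOX17, TNNT3, CKM, SNAP25, SYT1, RBFOX3, CD68, HBM, PAX8, PGR, FOXL2 and AKAP4 were defining cell type markers. PRDM14, EOMES, ELF5, JUP, PERP, CDH1, XBP1, GADD45A, XIRP2, FAT3, SSPO and MYBPC1 were named after their values were seen. One gene of the rule is not reported here. Diet was tested with edgeR's quasi-likelihood test and Benjamini-Hochberg FDR, with its likelihood-ratio test and DESeq2 1.42.0 as alternatives, and the calls were tested on simulated data. The lowest chi-square per gene between pools of a ram was 3.29, for Embryo424_1 and Embryo424_2, so no pool repeated the counts of another within counting error. Whether pools shared RNA before amplification was not tested. Gene neighbours came from RefSeq names of another assembly, ARS-UI_Ramb_v3.0, and no coordinates are given.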

Additional observations from a re-analysis of the deposited data

Results flagged for a closer look

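Within each diet of 6 pools, most values named in the text were checked. They were flagged where the highest or lowest pool's gap to the next, as a share of the whole range, was above Dixon's critical value. Chance flags about 1 in 20 such groups where values are normally distributed. Levels were checked as CPM, not as log2 values, and their distribution was not tested, so that rate is not established here. KRT8 in Embryo444_2 had no flag, at 116 CPM against 3893 to 9308 CPM in the other control pools. In all, 96 flags were made in 304 groups. Since the 2 pools were chosen as unlike the rest, their flags are not independent of that choice.

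In the control group, Embryo444_2 was farthest in median correlation, 0.582, and lowest in POU5F1 (14.2 CPM), CLDN6 (20.5), RPLP0 (29.7), SDHB (7.08), ALDOA (25.5), TKT (43.2), MCL1 (41.1) and PABPC1 (65.8). Its summed levels were also lowest for trophectoderm (973 CPM), pluripotency (483), hypoblast (1233), ribosomal proteins (1906), oxidative phosphorylation (918), glycolysis (521) and translation factors (1297). It was highest in CCDC40 (330 CPM), IFIT1 (71.5), FBXO45 (105), ELSPBP1 (67.3), KCNRG (63.7), C10H13orf42 (507), SPATA18 (394), RHBDF2 (234), APOE (35.4), FSIP2 (376), PTPRC (121), NEB (631) and ZBTB25 (651). The same held for XIRP2 (268 CPM), MYBPC1 (137), FAT3 (126), SNAP25 (87.8), KRT23 (82.1) and KRT20 (63.7), and for the summed level of uterine tract genes (295 CPM).

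In the methionine group, Embryo511_1 was lowest in median correlation (0.600), LDHB (16.9 CPM), AHNAK (75.3) and RAC3 (0). It was highest in PKP2 (5073 CPM), CC2D1A (2520), DDX47 (2445), POLM (1700), CCDC40 (1697), TNP1 (1008), F11R (960), FSIP2 (744), GRAP2 (728), CELSR3 (626), RYR1 (501), IFIT1 (492), LYPD8 (475) and ZP3 (410). It was also highest in PPIC (284 CPM), GABRR2 (259), PTPRC (254), GRIN2B (234), FBXO45 (230), ELSPBP1 (209), PID1 (176), SSPO (185), CDH11 (183), COL4A6 (441), LRRC61 (126), KPNA7 (126), HSPB7 (120), COL1A1 (119), ACTA1 (115), AQP9 (104), GATA4 (94.2), PRDM14 (83.3), KRT6A (72.4), ELF5 (66.4), MROH5 (53.5), KRT78 (48.6), TNNT3 (43.6), KCNRG (38.7), AMHR2 (37.7) and TNFAIP6 (36.7). Summed levels were highest there for oocyte (1157 CPM), neuronal (3907), cumulus (505) and sperm genes (1786).

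Concordant pools gave the other flags, all as the highest of their diet. Embryo410_1 had 29.3 CPM of PKP3, 30.1 of ACTA1 and 110 of CDX2, Embryo410_2 had 51.7 of LYPD8 and 1119 over the blood genes, Embryo423_1 had 134 of F11R, and Embryo423_2 had 54.5 of SYT1. Embryo424_2 had 82.7 CPM of TP53I13, Embryo424_4 had 36.9 of CKM, Embryo444_1 had 128 of ELF5 and 34579 over genes with long coding sequences, and Embryo498_1 had 180.1 over the uterine tract genes.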

How the results depend on the processing

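The scaling mattered for the balance of gains and losses. With library totals alone in place of TMM, 1378 genes were gained, 48.4% of all calls against 30.8%, and 3369 genes lay above the range in Embryo444_2, 60.6% of its calls against 40.4%. With a minimum difference of 2 log2 units, 83 genes were gained and 774 lost. Leaving out 1 discordant pool at a time gave 1918 to 2677 gained and 2917 to 3144 lost genes, the rule then asking for 1 pool only (2677 and 3144 without Embryo444_2). Leaving out each of the 5 pools of a diet gave 1942 to 2099 genes above and 2967 to 3005 below in Embryo444_2, and 2987 to 3260 and 3387 to 3580 in Embryo511_1. Size factors of DESeq2's kind (RLE) and a prior count of 0.5 kept all these counts within 1.5 times. Upper quartile factors and other count filters, not run for the counts within diets, did so for gained and lost genes.

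Between diets, 1 gene was called without both discordant pools, 5 by the likelihood-ratio test, 79 by that test without them, 16 by DESeq2 and 107 by DESeq2 without them, and the quasi-likelihood test gave 0 with RLE, with no filter, and without either discordant pool alone. The last alternatives without both pools in the likelihood-ratio test and DESeq2 were chosen after seeing the data. List medians moved by no more than the spread between pools with RLE, and in 6 of 25 lists by more with library totals alone. They moved by more in 9 lists without Embryo444_2 and in 12 without Embryo511_1. Oocyte genes had 0.05 without Embryo511_1 and 0.66 without Embryo444_2. Ribosomal protein genes had -4.00 without Embryo511_1 and -1.78 without Embryo444_2. With a filter of 50 counts, the median correlations were 0.358 and 0.411 for the discordant pools and 0.717 to 0.774 for the others. No paired analysis was possible because the number in a pool's name counts the pools of a ram, and no ram is in both diets. Depth limits single genes, since 3 counts were 2.12 CPM in Embryo444_2 and 2.97 in Embryo511_1.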

Other observations

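Keratins and cadherins outside the blastocyst lists held gained genes, described here by value only and picked after their values were seen. Of 30 tested genes with a KRT symbol, 4 were gained and 3 lost. KRT23 had 82.1 CPM in Embryo444_2 and 41.6 in Embryo511_1, against 9.06, 19.7 and 33.7 as the lowest, median and highest concordant value, and KRT20 had 63.7 and 27.8 CPM against 6.42, 17.2 and 21.2. Both were higher in Embryo444_2. The other gained keratins were higher in Embryo511_1, KRT6A with 45.3 and 72.4 CPM against a highest concordant value of 41.9 and KRT78 with 39.6 and 48.6 CPM against a highest value of 36.1. Of 22 cadherin genes with a CDH symbol, 4 were gained (18.2%) and 2 lost (9.09%). CDH11, a cadherin of mesenchyme, had 89.9 and 183 CPM against 29.6, 43.3 and 61.7. Among collagens, COL4A6, of basement membrane, had 133 and 441 CPM against 48.9, 69.9 and 121, and COL1A1, of fibrillar collagen, had 115 and 119 CPM against 28.9, 40.8 and 83.5.

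Genes under the count filter were also unevenly shared. Of 3604 such genes, 557 had at least 15 counts in Embryo444_2 and 310 in Embryo511_1. Among the 2011 of them with 15 counts in no concordant pool, 210 reached that count in Embryo444_2, 103 in Embryo511_1 and 14 in both.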
